A study of Arabidopsis thaliana with 6 samples.

Results

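The 10 genes described here encode enzymes that build or take apart starch in Arabidopsis thaliana, and were chosen by locus as APL3 (AT4G39210), GBSS1 (AT1G32900), SEX1 (AT1G10760), BAM1 (AT3G23920), BAM3 (AT4G17090), BAM5 (AT4G15210), ISA3 (AT4G09020), PHS1 (AT3G29320), DPE1 (AT5G64860) and DPE2 (AT2G40840). Each of the 10 loci had a single probe set among the 21430 on the arrays, and none shared its values with another probe set. Wild-type Columbia-0 seedlings were grown in liquid medium with 1% sucrose under 16 h light and 8 h dark. At 7 days, the H2O2 group received hydrogen peroxide to 10 mM and the mock group an equal volume of water, and both were sampled 24 h later. Each group had 3 arrays, each from a pool of 4 to 5 plants. Nothing in the labels tells whether these pools were grown apart, so the p-values reflect only the spread among pools, part of which may be technical.

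Starch is a store of glucose laid down in chloroplasts by day and used up at night, and roots and other sink tissues also hold it. ADP-glucose pyrophosphorylase makes the activated glucose, and starch synthases, branching enzymes and debranching isoamylases assemble the granule. For breakdown, glucan, water dikinases phosphorylate the granule surface, beta-amylases release maltose, isoamylase and limit dextrinase cut branch points, and disproportionating enzymes and phosphorylases handle the short glucans. Maltose leaves the chloroplast through MEX1 and is converted in the cytosol by DPE2.

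The values are log2 GCRMA values, in which background is corrected by probe sequence. Array medians lay between 5.66 and 5.74. The labels name leaf in one field and seedling in another. The 6 leaf mesophyll markers with a probe set had group means of 9.85 to 12.52 in H2O2 and 10.11 to 12.81 in mock. The 8 root markers had group means of 3.65 to 11.96 in H2O2 and 3.95 to 12.02 in mock, and all 8 passed the filter on low values. In such bulk samples, fewer cells of a type and less RNA per cell cannot be told apart.

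Of the 10 genes, 4 rose in H2O2 (BAM1, GBSS1, APL3 and BAM3) and 5 fell (SEX1, DPE2, PHS1, DPE1 and ISA3), at an adjusted p under 0.05 in limma over all probe sets tested. BAM5 lay below the filter on low values and was not tested. The largest increase was 2.47-fold, for BAM1, and the largest decrease 1.88-fold, for SEX1. Over all 15001 probe sets tested, 60.4% were called, 23.9% higher and 36.5% lower. A call is thus common on these arrays, and having 9 calls among 9 tested genes says little by itself. Both genes that changed at least 2-fold, BAM1 and GBSS1, rose; over all probe sets tested 7.63% were called at least 2-fold higher and 4.14% at least 2-fold lower. The groups did not overlap for any of the 10 genes, 5 above and 5 below mock, beside 67.2% of all probe sets tested (26.6% above and 40.7% below). The 9 tested genes had a median log2 change of -0.39, which is the value of ISA3, beside -0.10 over all probe sets tested. With BAM5 included, the median over the 10 genes was -0.02, beside -0.04 over all 21430 probe sets without the filter. The median thus hangs on 1 gene in a set that moved both ways. For all 9, both group means lay above the filter value of 3.79, so none entered the test through 1 group alone.

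**Figure D1:**
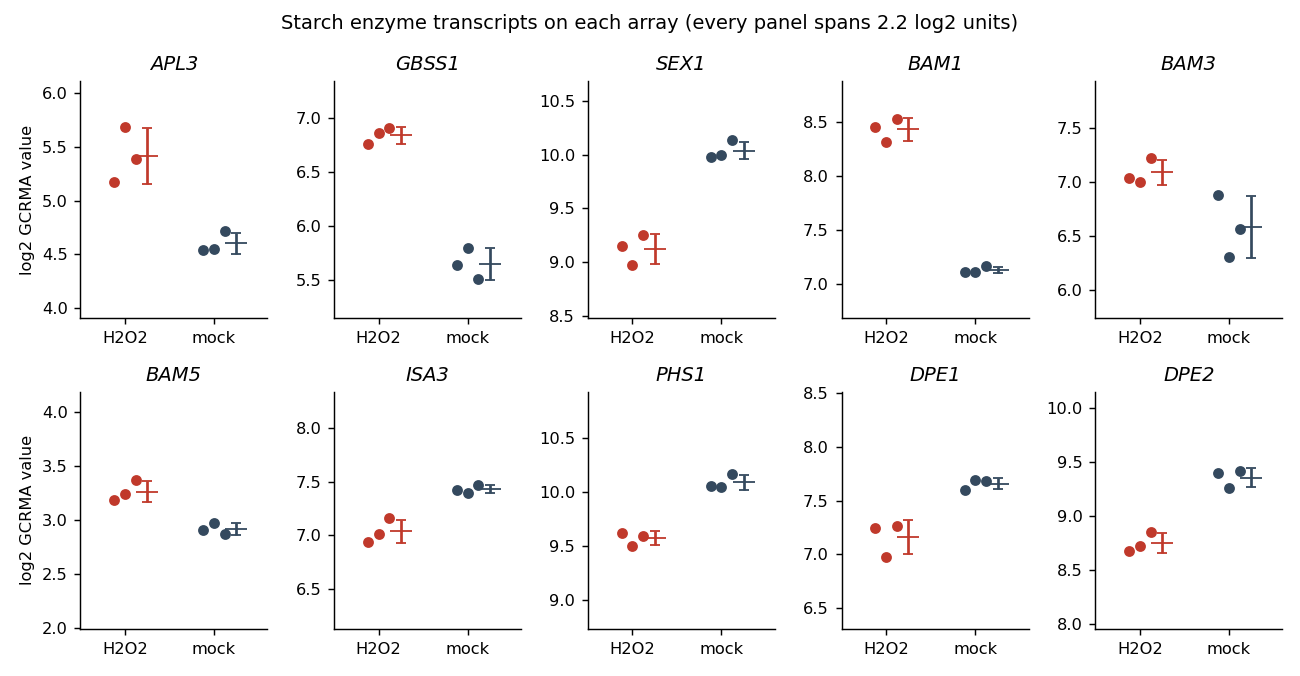
Log2 GCRMA values of the 10 starch enzyme transcripts on each of the 3 H2O2 (red) and 3 mock (dark blue) arrays; bars are the group mean ± SD, and each panel covers the same span. The H2O2 points of APL3, GBSS1, BAM1, BAM3 and BAM5 lie above every mock point, and those of SEX1, ISA3, PHS1, DPE1 and DPE2 lie below every mock point.

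APL3, which encodes a large regulatory subunit of ADP-glucose pyrophosphorylase known mainly from sink tissues and induced by sugars, had log2 values of 5.17, 5.69 and 5.38 in H2O2, against 4.54, 4.55 and 4.72 in mock. The groups did not overlap, and the H2O2 arrays were the more spread. Its log2 change was 0.81 (SE 0.13, 95% interval 0.51 to 1.11, adjusted p = 0.000847 in limma), a 1.75-fold increase.

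No other subunit gene of this enzyme was called higher. ADG1 (AT5G48300, also called APS1), the gene of the catalytic small subunit, averaged 9.41 ± 0.05 in H2O2 and 9.44 ± 0.08 in mock (SD, n = 3 each), a change of -0.03 (95% interval -0.21 to 0.15). The main leaf large subunit gene APL1 was lower by 0.23 (adjusted p = 0.044 in limma). That call ended in the fit with a replicate block (adjusted p = 0.065), with reference gene centring (change -0.09, adjusted p = 0.45) and under 9 further alternatives. APL2 changed by -0.09 (adjusted p = 0.29), and APL4, with means of 3.31 in H2O2 and 3.76 in mock, was below the filter.

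GBSS1, the granule-bound starch synthase that makes amylose, had log2 values of 6.76, 6.86 and 6.91 in H2O2, against 5.63, 5.80 and 5.51 in mock. The groups lay far apart, with a gap several times the spread within either. The change was 1.20 (SE 0.09, 95% interval 0.98 to 1.41, adjusted p = 1.49e-05 in limma), 2.29-fold higher. It lay at the 93.9 percentile of changes among all probe sets tested. GBSS1 is known from other work to follow the circadian clock; the labels give no time of day for the harvest.

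The 4 soluble starch synthase genes, which extend the amylopectin chains, all fell. SS4 (AT4G18240), which acts in starting granules, had 7.25 on each H2O2 array, against 8.04, 8.18 and 8.18 in mock (change -0.88, SE 0.07, adjusted p = 2.29e-05 in limma). SS3 (AT1G11720) fell by 0.55, and SS1 and SS2 by 0.51 and 0.33. The SS2 call ended with reference gene centring (adjusted p = 0.12), without variance moderation and without any of 4 arrays. The starch synthase family held 1 riser, GBSS1, and 4 fallers, on arrays where 23.9% of all probe sets tested were called higher and 36.5% lower.

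Across the 15 other genes of starch synthesis, which also include branching enzymes, the isoamylases ISA1 and ISA2, plastid hexose phosphate enzymes and the GBSS1-targeting protein gene PTST1 (AT5G39790), 14 were tested. None rose, 11 fell and 3 were not called, at a median of -0.46 on the log2 scale. Over all probe sets tested, 23.9% were called higher and 36.5% lower, at a median of -0.10. ISA1 (AT2G39930) and ISA2 (AT1G03310), whose products work together to trim amylopectin, fell by 0.88 and 0.77. PTST1, which guides GBSS1 protein to the granule, fell by 0.52 while GBSS1 itself rose. PTST1 was singled out after its value was seen. Under reference gene centring, a scaling that shifted the median change over the whole array by 0.14, 7 of these genes fell.

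SEX1, the glucan, water dikinase that starts starch breakdown and is also called GWD1, had log2 values of 9.15, 8.98 and 9.25 in H2O2, against 9.98, 10.00 and 10.13 in mock. The highest H2O2 array was below the lowest mock array by several times the spread within either group. SEX1 fell by 0.91 (SE 0.09, 95% interval -1.12 to -0.70, adjusted p = 6.82e-05 in limma). Of all changes tested, it lay at the 5.14 percentile.

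The related dikinase gene PWD (AT5G26570), whose product acts on glucan already phosphorylated by SEX1, fell by 0.71 (SE 0.08, adjusted p = 8.8e-05 in limma). The third gene of the family moved the other way. GWD2 (AT4G24450), an enzyme placed outside the chloroplast and linked to phloem, had 7.21, 7.40 and 7.39 in H2O2, against 5.22, 5.28 and 5.50 in mock. That is a 4.00-fold increase (log2 change 2.00, SE 0.10, adjusted p = 9.47e-07 in limma), the largest among the 34 tested genes of the starch enzyme families. The RefSeq gene table of assembly TAIR10.1 lists this locus under the symbol PWD with GWD2 as a synonym, so the locus is the safer name. Of the glucan phosphatase genes, which remove the phosphate again, SEX4 fell by 0.47, while LSF1 and LSF2 changed by -0.15 and 0.21 without passing. LSF2 passed in the fit with a replicate block (adjusted p = 0.046).

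**Figure D2:**
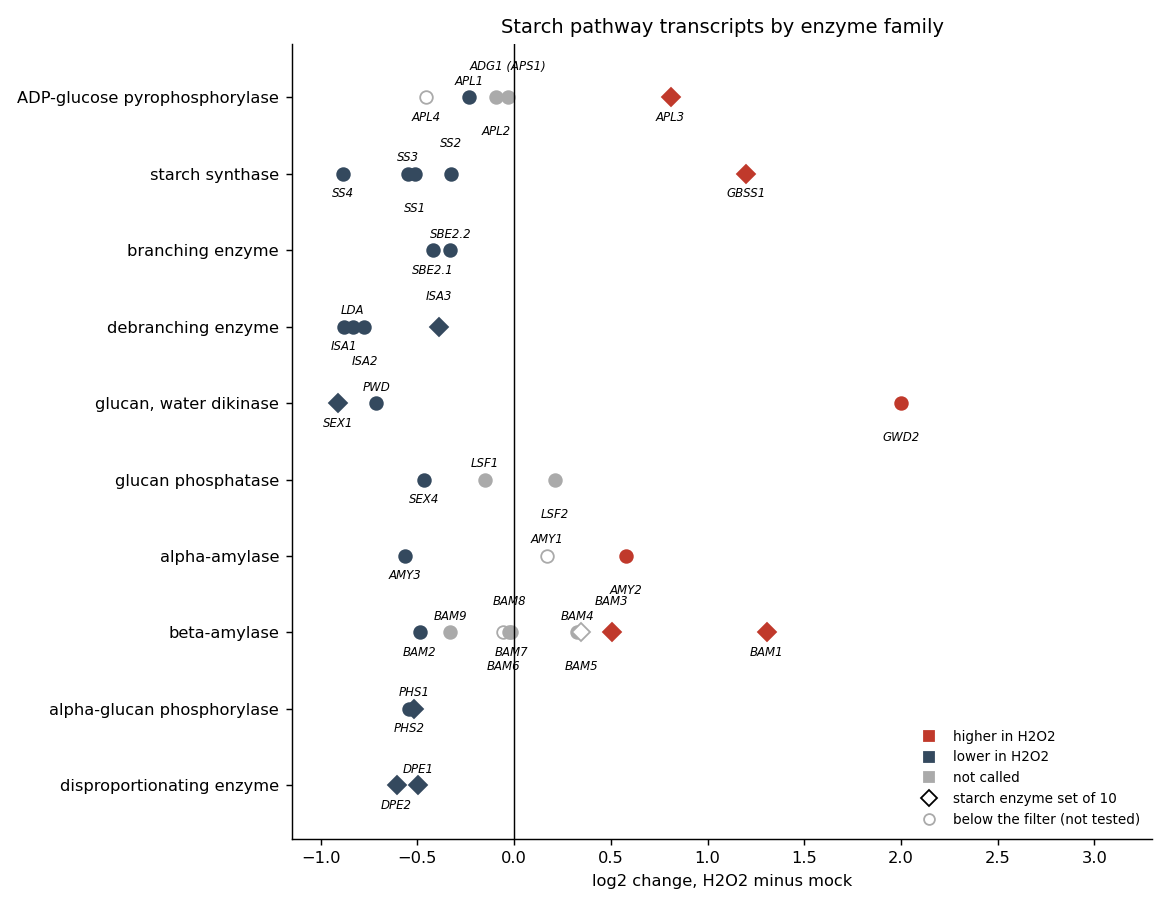
Log2 change (H2O2 minus mock) of 38 starch pathway genes in 10 enzyme families; diamonds are the starch enzyme set of 10, circles other genes, red is higher, dark blue lower, filled grey not called, and open grey symbols were below the filter. In 5 families risers (APL3, GBSS1, GWD2, AMY2, and BAM1 with BAM3) and fallers both occur. Every branching enzyme, debranching enzyme, phosphorylase and disproportionating enzyme gene lies to the left of 0.

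BAM1, a chloroplast beta-amylase regulated by thioredoxin and known from guard cells and from osmotic and heat stress in leaves, showed the largest increase of the set. It had log2 values of 8.46, 8.32 and 8.53 in H2O2, against 7.11, 7.12 and 7.17 in mock. The mock arrays were within 0.1 of each other, and all H2O2 arrays lay more than a full unit above them. BAM1 rose by 1.31 (SE 0.08, 95% interval 1.12 to 1.49, adjusted p = 3.45e-06 in limma).

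BAM3, the main beta-amylase of night-time breakdown in leaf mesophyll and listed in RefSeq as CT-BMY, had 7.04, 7.01 and 7.23 in H2O2, against 6.88, 6.31 and 6.56 in mock. The groups did not overlap, but mock replicate 1 lay close to the H2O2 arrays. The change was 0.50 (SE 0.14, 95% interval 0.18 to 0.83, adjusted p = 0.014 in limma). It was 0.37 without mock replicate 2 and 0.65 without mock replicate 1, and the call ended without variance moderation (adjusted p = 0.081). With 1 array left out, its highest adjusted p was 0.0499 in limma, just under the threshold.

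BAM5, an extrachloroplastic beta-amylase of phloem that responds to sugars, had low values throughout. They were 3.18, 3.24 and 3.37 in H2O2, against 2.91, 2.97 and 2.87 in mock. All 3 H2O2 arrays were above the mock arrays, but both groups were under the filter value, where GCRMA compresses signals and a fold is uncertain. Without the filter the change was 0.35 (adjusted p = 0.0074 in limma).

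Among the 6 other beta-amylase genes, BAM2 (AT4G00490), which encodes a chloroplast enzyme, fell by 0.49. BAM4, a chloroplast protein without known catalytic activity, changed by 0.33 (adjusted p = 0.12), and passed in the block fit (adjusted p = 0.011). BAM7 and BAM8, which act as transcription factors, changed by -0.01 and -0.02, and BAM9 by -0.33, none passing. BAM6 was below the filter. The beta-amylase family had 2 risers, 1 faller and 4 that did not pass among 7 tested. For all probe sets tested, the shares were 23.9% higher, 36.5% lower and 60.4% called in either direction.

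Within an array, subtracting the log2 value of one gene from that of another removes a scaling common to all its probe sets. A scaling that varies with signal level is not removed. Only the shift of that difference between groups is read here. BAM1 minus BAM3 was 1.42, 1.31 and 1.31 in H2O2, against 0.23, 0.81 and 0.60 in mock, a shift of 0.80. All H2O2 arrays lay above all mock arrays. With 3 arrays against 3, the exact permutation test cannot give a p below 0.1, which this pair reached (adjusted p = 0.25 over 5 pairs). APL3 minus ADG1 shifted by 0.84, also with no overlap (exact permutation p = 0.1, adjusted p = 0.25). These tests ignore the pairing of same-numbered arrays. With that pairing, sign flips gave both shifts an adjusted p of 0.625, and 3 pairs of arrays cannot give a small p. DPE1 minus DPE2 shifted by 0.11 (exact permutation p = 0.5), with overlapping groups. PHS1 minus PHS2 shifted by 0.02 (exact permutation p = 0.3). The remaining pair, BAM5 minus BAM3, is not read, since BAM5 was below the filter in both groups.

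**Figure D3:**
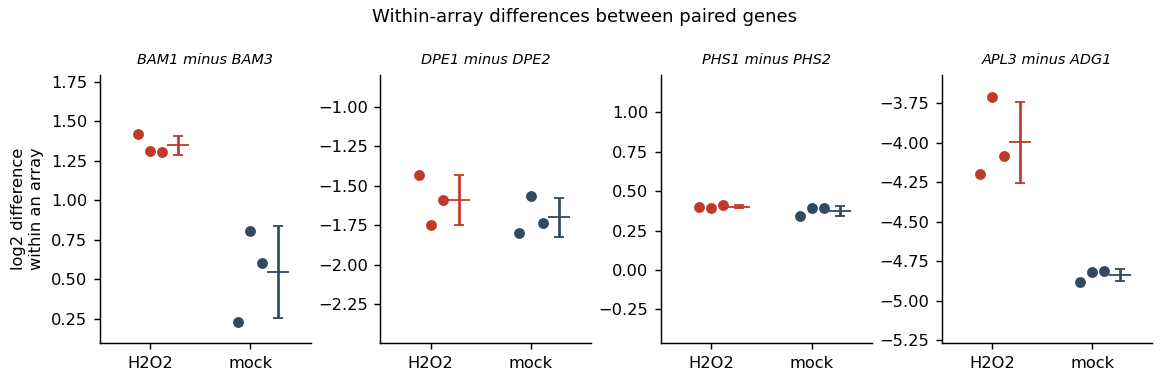
Difference in log2 value between paired genes on the same array, for the 3 H2O2 (red) and 3 mock (dark blue) arrays, with the group mean ± SD; only the shift between groups can be read, since levels of different probe sets are not comparable. BAM1 minus BAM3 and APL3 minus ADG1 lie higher in every H2O2 array (shifts of 0.80 and 0.84), whereas DPE1 minus DPE2 and PHS1 minus PHS2 shift by 0.11 and 0.02.

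ISA3, the debranching isoamylase of starch breakdown, had log2 values of 6.94, 7.01 and 7.16 in H2O2, against 7.43, 7.39 and 7.47 in mock. The groups were apart, and the decrease was the smallest of the 5, at 0.39 in size. The change was -0.39 (SE 0.08, 95% interval -0.58 to -0.20, adjusted p = 0.00336 in limma). Limit dextrinase (LDA, AT5G04360), the other debranching enzyme gene of breakdown, fell by 0.83 (SE 0.07, adjusted p = 2.96e-05 in limma). With ISA1 and ISA2, all 4 debranching enzyme genes fell, as did 36.5% of all probe sets tested. The alpha-amylase genes, whose products cut inside glucan chains, split: AMY2 (AT1G76130) rose by 0.58 and AMY3, the chloroplast form, fell by 0.56, while AMY1 was below the filter.

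PHS1, the plastid alpha-glucan phosphorylase that releases glucose 1-phosphate, had 9.62, 9.50 and 9.59 in H2O2, against 10.05, 10.05 and 10.17 in mock. Its values were tight within both groups and did not overlap. It fell by 0.52 (SE 0.08, 95% interval -0.69 to -0.34, adjusted p = 0.000534 in limma). PHS2 (AT3G46970), the cytosolic form that works downstream of DPE2, fell by 0.54 (SE 0.07, adjusted p = 0.000367 in limma).

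DPE1, the plastid disproportionating enzyme that recycles maltotriose, had log2 values of 7.24, 6.98 and 7.26 in H2O2, against 7.60, 7.69 and 7.68 in mock. H2O2 replicate 2 was the lowest, and without it the log2 change was -0.40 in place of -0.50. The SE of the change was 0.09, with a 95% interval of -0.71 to -0.28 and an adjusted p of 0.00213 in limma. DPE2, the cytosolic glucanotransferase that takes up maltose, had 8.68, 8.73 and 8.85 in H2O2, against 9.40, 9.26 and 9.42 in mock. DPE2 fell by 0.61 (SE 0.08, 95% interval -0.80 to -0.42, adjusted p = 0.000355 in limma). In both enzyme pairs, the gene of the plastid form and that of the cytosolic form fell, beside 36.5% of all probe sets tested.

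**Figure D4:**
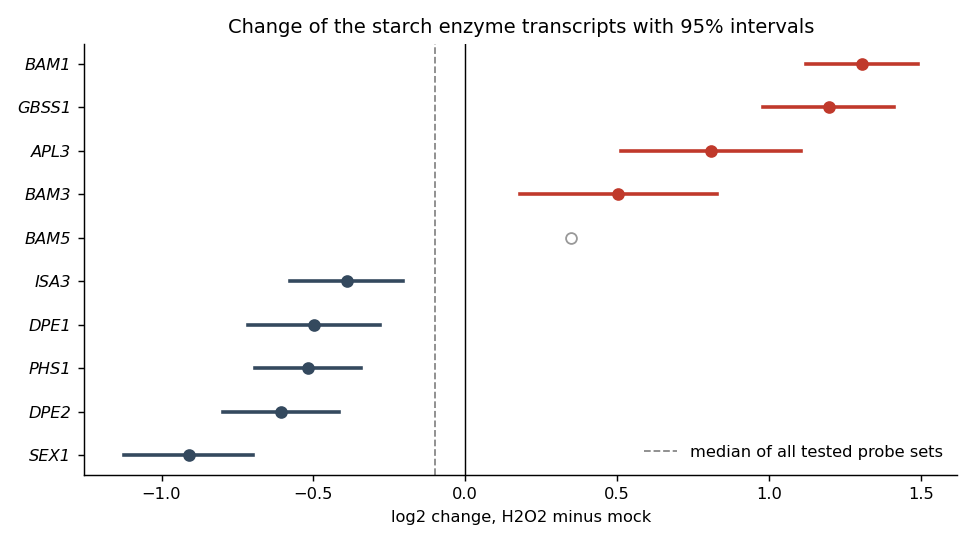
Log2 change (H2O2 minus mock) of each starch enzyme transcript with its 95% interval from limma; BAM5 (open symbol) was below the filter and has no interval, and the dashed line is the median of all tested probe sets (-0.10). The 4 intervals of BAM1, GBSS1, APL3 and BAM3 lie above 0, and the 5 intervals of ISA3, DPE1, PHS1, DPE2 and SEX1 lie below both 0 and the dashed line.

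Among the 16 other breakdown genes, 14 were tested: 2 rose, GWD2 and AMY2, 6 fell and 6 did not pass, with a median of -0.24. In the block fit, 4 rose. Taking the set of 10 and these other synthesis and breakdown genes by enzyme family, 38 genes had a probe set and 34 were tested, of which 6 rose, 20 fell and 8 did not pass, beside 23.9% higher and 36.5% lower over all probe sets tested. These lists were chosen from knowledge of the pathway with results of these data known.

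Transporters of the plastid envelope that carry the products and substrates of starch went both ways, with 2 risers and 4 fallers among 6 tested. The shares over all probe sets tested were 23.9% higher and 36.5% lower. GPT2 (AT1G61800), a glucose 6-phosphate carrier known to respond to sugars, rose 2.91-fold (log2 change 1.54, SE 0.16, adjusted p = 7.13e-05 in limma). Its values were 6.72, 7.30 and 7.28 in H2O2, against 5.44, 5.71 and 5.52 in mock. MEX1 (AT5G17520), the maltose exporter, fell by 0.41, the triose phosphate carrier TPT (AT5G46110) by 0.51 and the pentose phosphate carrier XPT (AT5G17630) by 0.50. The other riser, GPT1, was called at 0.29 (adjusted p = 0.033), a call lost without variance moderation and without H2O2 replicate 1, H2O2 replicate 2 or mock replicate 2. NTT1 and NTT2, the plastid ATP carriers, had no row and were not analysed here.

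Cytosolic genes that make or split sucrose or handle hexose phosphates included 6 risers, 1 faller and 5 not passing among 12 tested. Their median was 0.20, beside -0.10 over all probe sets tested, of which 23.9% were called higher and 36.5% lower. SPS4F (AT4G10120) and SPS2F (AT5G11110), sucrose phosphate synthases, rose 2.32-fold and 1.93-fold. The sucrose synthase genes SUS3 (AT4G02280) and SUS1 (AT5G20830) rose 2.04-fold and 1.68-fold. The faller was PGM2 (AT1G70730), a cytosolic phosphoglucomutase, by 0.73.

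Of 13 genes of trehalose 6-phosphate metabolism, a sugar signal, and of the SnRK1 energy kinase and its targets, 1 rose, 2 fell and 10 did not pass, with a median of -0.05. Calls were thus fewer than the 60.4% called over all probe sets tested. TPS10 (AT1G60140) fell by 0.82 (adjusted p = 0.000269 in limma). TPS1 (AT1G78580), the active synthase, rose by 0.30 (adjusted p = 0.016), a call lost without mock replicate 1 (adjusted p = 0.053). DIN10 (AT5G20250), a dark-induced gene, was lower by 0.52 (adjusted p = 0.027) with overlapping groups. That call ended under 7 alternatives, among them quantile normalization (adjusted p = 0.092). The kinase gene KIN10 changed by -0.05 (adjusted p = 0.65), and KIN11 by 0.20 (adjusted p = 0.085), which passed in the block fit (adjusted p = 0.045).

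Markers of cell types that use these enzymes also moved, on arrays where 23.9% of all probe sets tested were called higher and 36.5% lower. Of 5 phloem markers, 4 rose, and the mean over the list was 8.24 to 8.45 on the H2O2 arrays and 7.79 to 7.84 on the mock arrays. They included the sucrose carrier gene SUC2 (change 0.74), of interest for GWD2 and BAM5. Of the guard cell markers, of interest for BAM1, KAT1 and KAT2 rose by 1.80 and 0.32, and SLAC1 was below the filter. MYB60 and FAMA were lower by 2.07 and 1.08, with H2O2 means of 3.58 and 3.34, under the filter value of 3.79. They entered the test only through the mock group (means 5.65 and 4.43). Their calls are thus not read, and the size of their falls is uncertain. The list mean was 4.22 to 4.28 in H2O2 and 4.48 to 4.53 in mock. Of 6 leaf mesophyll markers, 5 fell, by 0.26 to 0.78, with list means of 10.99 to 11.22 in H2O2 and 11.41 to 11.53 in mock, and RBCS1A and CAB2 had no row. Of 8 root markers, 5 fell and 3 did not pass. Their list mean was 6.15 to 6.36 in H2O2 and 6.97 to 7.03 in mock. The root markers did not move alike: PRP3, XTH14 and EXPA7 changed by -2.08, -1.76 and -1.57, but CASP1 and MRN1 by -0.30 each. PYK10, CASP4 and GL2, which did not pass, changed by -0.05, 0.16 and 0.13. MRN1, among the 5 fallers, had an H2O2 mean of 3.65, under the filter value. It entered the test only through the mock group (mean 3.95), so its call is not read either. The part of these shifts in the changes of the starch genes was not tested.

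The calls of the 9 genes held under quantile normalization and under both centrings of the arrays. With reference gene centring, the changes ran from -0.77 for SEX1 to 1.45 for BAM1, and ISA3, nearest to 0 of the fallers, was at -0.25 (adjusted p = 0.033). Of the 8 reference genes, 3 were themselves called lower, beside 36.5% of all probe sets tested.

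**Figure D5:**
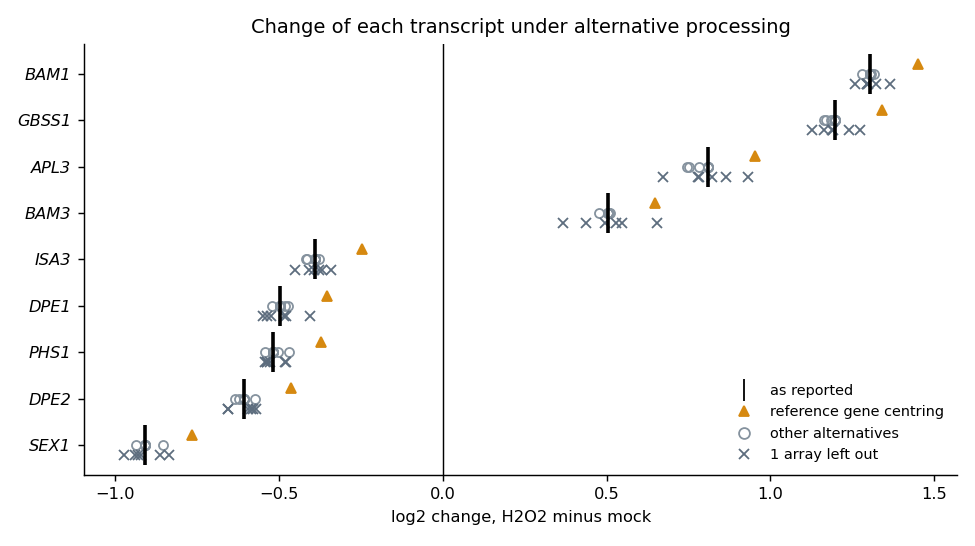
Log2 change (H2O2 minus mock) of the 9 tested starch enzyme transcripts as reported (black bars), with reference gene centring (orange triangles), under the other alternatives (open circles) and with 1 array left out (crosses). No gene crosses 0, reference gene centring moves all 9 to the right by 0.14, and BAM3 has the widest range, from 0.37 to 0.65.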

How the data were processed

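The authors' deposited table holds log2 values made with GCRMA, per the submitters' processing notes. Their range, 1.55 to 13.2, shows the log2 scale. No source used here gives the GCRMA version, chip type or genome build, so no coordinates are printed. Symbols came from the RefSeq table of TAIR10.1, in which 21231 of 21430 loci were found, or from common usage.

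Probe sets with a mean under the 30th percentile (3.79) were left out, and 15001 entered the fit with limma 3.58.1 (R 4.3.3, functions lmFit and eBayes). P-values were adjusted by Benjamini-Hochberg over these and called under 0.05. The number of arrays limits the precision.

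Same-numbered arrays of both groups deviated together (correlations 0.19, 0.21 and 0.21), so the number was taken to pair them and was used as a block in an alternative. Other alternatives were the filter, a floor, the scaling, the prior, array weights and each array left out.

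Members and lists were chosen with earlier results of these data known. The rule named the 10 members and up to 4 genes of each pathway list with the largest changes that passed. All other genes named, among them those of the members' enzyme families, PTST1, GPT1, PGM2, KIN10, KIN11, TPS8, SEN1 and SUS4, were added after the values were seen. Figures were drawn with matplotlib 3.10.9.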

Additional observations from a re-analysis of the deposited data

How the results depend on the processing

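Of the 9 tested starch enzyme genes, 8 kept their direction and call under every alternative in which they were tested. BAM3 did not pass without variance moderation (adjusted p = 0.081), and passed narrowly with 1 array left out (highest adjusted p = 0.0499 in limma). The 50th percentile filter left APL3 untested. Without the filter BAM5 was also called, making 5 higher. With reference gene centring 3615 probe sets were called lower in place of 5482 and 56.9% of calls were higher in place of 39.5%; 7 other synthesis genes fell in place of 11, 4 other breakdown genes rose in place of 2, and in the trehalose phosphate and SnRK1 list 2 rose and 1 fell in place of 1 and 2. In the replicate block fit and with the trended, robust prior, 4 other breakdown genes and 2 of the trehalose phosphate and SnRK1 list rose. The block changed no call of the 9 genes, and among other genes named it ended that of APL1 and brought in LSF2, BAM4 and KIN11. Without variance moderation 1 transporter rose and 1 gene of the trehalose phosphate and SnRK1 list fell. With quantile normalization 1 gene of that list fell, with array weights 2 rose, and with the 50th percentile filter 0 rose. TPS1, the riser of that list as reported, lay near this filter, at the 50.7 percentile of H2O2 means and 47.4 of mock means. With 1 array left out, 1 to 2 transporters rose, and in the trehalose phosphate and SnRK1 list 0 to 2 rose and 1 to 3 fell. The shift of BAM5 minus BAM3, not interpretable since BAM5 was below the filter, was -0.16, -0.50 with low values raised (where it holds only the BAM3 change), and ran from -0.31 to 0.0083 with 1 array left out, turning positive without mock replicate 2. Where no other reason is given, the cause was not tested. GCRMA values carry no detection call, so low genes such as BAM5 have no secure fold.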

Other observations

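Several sugar-related genes differed more among the mock arrays than between the groups, and mock replicate 1 was the lowest or the highest mock array for each gene named here. These genes were picked after their values were seen. BAM9 (AT5G18670), a beta-amylase relative, had 6.59, 6.94 and 6.34 in H2O2, against 6.30, 7.27 and 7.29 in mock. TPS8 (AT1G70290) had 8.13, 8.89 and 9.04 in H2O2, against 8.06, 8.98 and 9.58 in mock, with replicate 1 lowest and replicate 3 highest in both groups. The dark-induced gene SEN1 (AT4G35770, also called DIN1) had 11.19, 11.23 and 11.31 in H2O2, against 10.57, 11.19 and 11.50 in mock, with replicate 1 lowest in both. The sucrose synthase gene SUS4 (AT3G43190) ran the other way, with 6.43, 5.96 and 6.75 in H2O2, against 8.07, 6.37 and 6.55 in mock. BAM3 was also highest in mock replicate 1 within its group, at 6.88. None of BAM9, TPS8, SEN1 and SUS4 passed the comparison of the groups (adjusted p = 0.31, 0.69, 0.52 and 0.22 in limma).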
